A study of Mus musculus with 12 samples.

Results

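The expression of 10 Rab GTPase genes of endosomes and phagosomes was described in mouse bone marrow derived macrophages: Rab4a, Rab4b, Rab5a, Rab5c, Rab7, Rab10, Rab11a, Rab20, Rab27a and Rab32. They were found by matching the Ensembl identifiers of the count table to mouse symbols, and all 10 were among the 55891 genes of the table and among the 13525 genes that passed the filter on low counts. Rab4a was chosen by its difference between knockout and wild-type libraries, so its values are given without a test. The other 9 genes were chosen by name, with earlier results of these libraries known. Marrow progenitors from Ptprz1 knockout (KO) or wild-type (WT) animals had been differentiated in 10 ng/mL M-CSF, a macrophage growth factor, over 6 days. Ptprz1 encodes a receptor-type tyrosine phosphatase. Control cells received no named stimulus, another set received 100 ng/mL LPS with 10 ng/mL IFNγ for 24 h (M1 in the labels), and the last set received 20 ng/mL IL-4 for 24 h (M2 in the labels). Each of the 6 groups of genotype and treatment had 2 libraries. WT titles begin with B6, while the strain label names B6.129-Ptprz1tm1Nmo for every sample, WT included. No source used here gives the age of the animals or says whether the 2 libraries of each group are separate animals. The p-values therefore rest on the spread between the deposited samples alone, and that spread may be technical.

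Rab GTPases are small membrane switches. In the GTP-bound state they sit on the membrane of 1 kind of compartment and recruit effectors that tether, move or fuse vesicles, and in the GDP-bound state they are extracted to the cytosol by GDP dissociation inhibitors. In macrophages a newly formed phagosome passes from a Rab5 to a Rab7 stage on its way to fusion with lysosomes, while Rab4 and Rab11 carry receptors back to the cell surface by a fast and a slow route. Rab10, Rab20, Rab27 and Rab32 act on exocytic, phagosomal and lysosome-related membranes.

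Total counts ran from 13665607 to 19555600 per library. Levels are in CPM, the count of a gene relative to its library's scaled total. Macrophage markers summed to between 8684 and 21010 CPM, with all 9 listed genes detected. Ptprz1, the targeted gene, was at 0 CPM in every library except WT IL-4 library 2 (0.344 CPM), so it does not check the genotype labels. At these depths a count of 0 allows up to between 0.138 and 0.290 CPM (3 counts, counting error alone). Genotype coincided with sex-linked transcripts: Ddx3y was at 0 CPM in WT libraries and between 86.3 and 110 CPM in KO libraries, and Xist was between 232 and 617 CPM in WT libraries and at 0 CPM in KO libraries. Genotype and sex cannot be told apart. Stromal markers (12 listed, 11 past the filter, none at 0 in all libraries) summed to between 69.7 and 456 CPM in WT and between 363 and 1617 CPM in KO libraries, and within each genotype and treatment library 2 had the higher sum. The granulocyte and precursor markers (10 listed, 4 past the filter, Ly6g at 0 in all libraries) summed to 221 CPM in KO LPS+IFNγ library 2 and to between 0.828 and 39.3 CPM in the others. S100a8, 1 of these markers, was higher after LPS+IFNγ than in control in both genotypes by the test described below. Its log2 difference was 4.43 ± 0.87 (SE) in WT and 6.76 ± 0.91 in KO. The sum thus includes a gene that rose with this stimulus. Of 8 genes listed to check the stimuli (such as Nos2 and Retnla), 5 rose with LPS+IFNγ and 4 rose with IL-4 in each genotype by the test described below. Of all genes, 27.4% in WT and 27.2% in KO rose with LPS+IFNγ, and 4.92% and 3.52% with IL-4. The 5 included Arg1, which was high after either stimulus. Its log2 difference from control was 10.6 in WT and 7.62 in KO with LPS+IFNγ, and 12.5 and 9.60 with IL-4.

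Rab4a, a GTPase of rapid recycling from early endosomes, was read at low counts and was higher in KO than in WT libraries under each treatment. In control cells it was at 1.99 and 2.07 CPM in WT and at 4.93 and 4.34 CPM in KO. After LPS+IFNγ it was at 0.613 and 0.542 CPM in WT and at 3.04 and 3.87 CPM in KO. After IL-4 it was at 3.35 and 3.34 CPM in WT and at 6.23 and 5.49 CPM in KO. Within each treatment both KO libraries therefore lay above both WT libraries. Of the 13525 genes past the filter, 1.21% had both KO libraries above both WT libraries under each of the 3 treatments, and Rab4a was chosen for this difference, so nothing is read from its being among them.

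**Figure D1:**
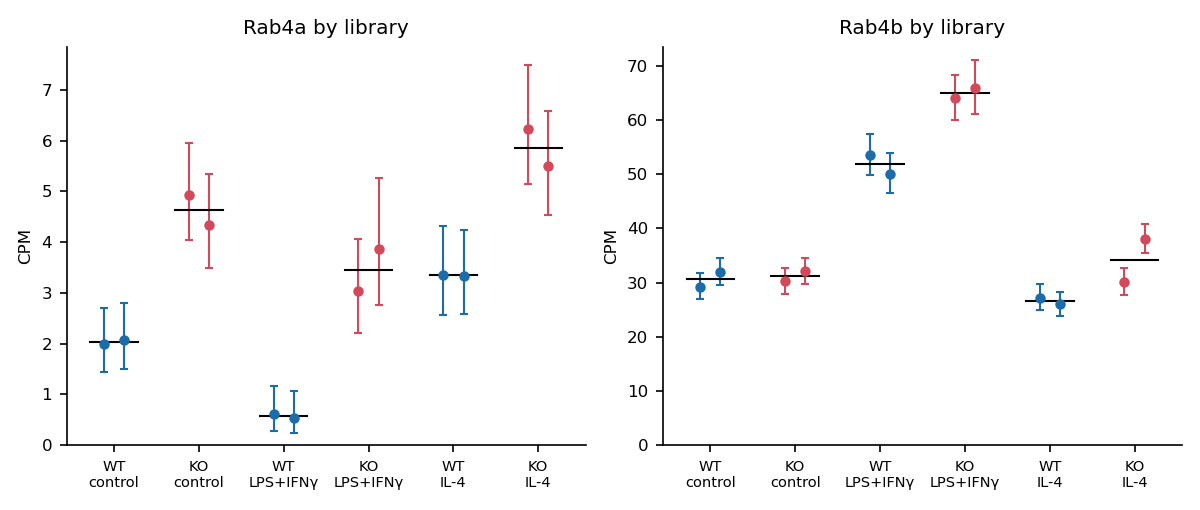
CPM of Rab4a and Rab4b (vertical axes, both from 0) in each of the 12 libraries, by group (horizontal axis; WT blue, KO red). Points are libraries, horizontal bars are means of 2 libraries and error bars are exact Poisson 95% intervals for counting error; Rab4a was lowest in WT LPS+IFNγ libraries (0.613 and 0.542 CPM), where Rab4b was at 53.6 and 50.1 CPM.

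The counts behind these values were 41 and 42 in WT control, 9 and 8 in WT LPS+IFNγ, and 60 and 68 in WT IL-4 libraries. KO libraries had 107 and 89 counts in control, 45 and 40 after LPS+IFNγ, and 114 and 116 after IL-4. The exact Poisson 95% interval of WT LPS+IFNγ library 1 ran from 0.280 to 1.16 CPM and that of library 2 from 0.234 to 1.07 CPM, and these cover counting error alone. The intervals of the KO LPS+IFNγ libraries ran from 2.22 to 4.06 CPM and from 2.76 to 5.27 CPM. WT control libraries had intervals of 1.43 to 2.70 and 1.49 to 2.80 CPM, and WT IL-4 libraries 2.55 to 4.31 and 2.59 to 4.23 CPM. The small SDs of the WT groups given next, LPS+IFNγ included, are below their counting error. Group means were 2.03 ± 0.054 CPM in WT and 4.63 ± 0.417 CPM in KO controls (SD, n = 2), a KO to WT ratio of 2.28. The ratio was 5.98 after LPS+IFNγ, with 0.577 ± 0.050 CPM in WT and 3.45 ± 0.589 CPM in KO, and 1.75 after IL-4, with 3.34 ± 0.006 CPM in WT and 5.86 ± 0.522 CPM in KO (SD, n = 2). The ratio was thus widest where the WT level was lowest.

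On the log2 scale of the fitted model, KO minus WT was 1.19 ± 0.24 (SE) in control, 2.56 ± 0.29 with LPS+IFNγ, 0.81 ± 0.24 with IL-4 and 1.52 ± 0.15 as the mean of the 3 treatments. Relative to control, the Rab4a difference after LPS+IFNγ was −1.80 ± 0.28 in WT and −0.43 ± 0.24 in KO, and after IL-4 it was 0.72 ± 0.24 in WT and 0.34 ± 0.23 in KO. In CPM, the WT mean after LPS+IFNγ was 3.52 times lower than in control and the KO mean 1.34 times lower, and both libraries after LPS+IFNγ lay below both control libraries in each genotype. After IL-4 the mean was 1.65 times the control in WT and 1.26 times in KO, with both IL-4 libraries above both controls in each genotype. The KO and WT responses differed by 1.37 ± 0.37 for LPS+IFNγ and by −0.38 ± 0.34 for IL-4. Leaving out KO LPS+IFNγ library 2, the library with the high granulocyte marker sum, left a KO minus WT difference of 2.39 after LPS+IFNγ. Over all 18 alternatives that difference was between 2.39 and 2.73. The response to LPS+IFNγ ran from −2.30 to −1.72 in WT and from −0.93 to −0.27 in KO over the same alternatives. Rab4a was chosen on its KO and WT difference in these libraries, so these ranges describe it and do not test it. The stromal marker sum was highest in library 2 of each KO group, whereas Rab4a was higher in library 2 than in library 1 in the LPS+IFNγ group alone of the 3 KO groups. The part of stromal RNA in the difference was not tested.

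Rab4b (chromosome 7, 27168424 to 27178896, minus strand), a close relative of Rab4a, was the more abundant of the pair in every library. Per kilobase of annotated exon, Rab4a made up 7.09% and 6.77% of the summed Rab4a and Rab4b level in WT controls and 15.5% and 13.2% in KO controls. After LPS+IFNγ the share was 1.27% and 1.20% in WT and 5.04% and 6.17% in KO. After IL-4 it was 12.1% and 12.6% in WT and 18.8% and 13.9% in KO. The KO shares lay above the WT shares in each treatment, which follows in part from the choice of Rab4a on its KO and WT difference. The smallest shares of each genotype were those after LPS+IFNγ. The annotated transcripts of Rab4a and Rab4b share 0 stretches of 31 bases, and Rab4a shares 0.114% of its 31-base stretches with any other gene (Rab8a).

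Rab4a lies on chromosome 8 at positions 123805985 to 123835287 of GRCm38, on the plus strand (ENSMUSG00000019478). Its span is overlapped in the annotation by Gm20388, a long read-through model on the same strand that has no row in the count table. Of the 5 nearest tested genes on each side, 0 were called between KO and WT in any treatment or in the mean of the 3 treatments. Of all genes, 0.0739%, 0.0591% and 0.0665% were called in control, LPS+IFNγ and IL-4, and 0.17% in the mean. A count of 0 among so few genes is near these shares, and nothing is read from it. The KO minus WT differences of these neighbours as the mean of the treatments ran from −0.08 to 1.61, with a median of 0.16, beside 1.52 for Rab4a. Rhou, 142 kb away, had 2.48 and 1.62 CPM in WT controls, 3.22 and 4.82 CPM in KO controls, and its mean difference of 0.58 did not pass the test (adjusted p = 0.325). Ccsap, which encodes a centriole and cilium associated protein 5.54 kb from Rab4a, had a mean difference of −0.08 (adjusted p = 0.940).

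**Figure D2:**
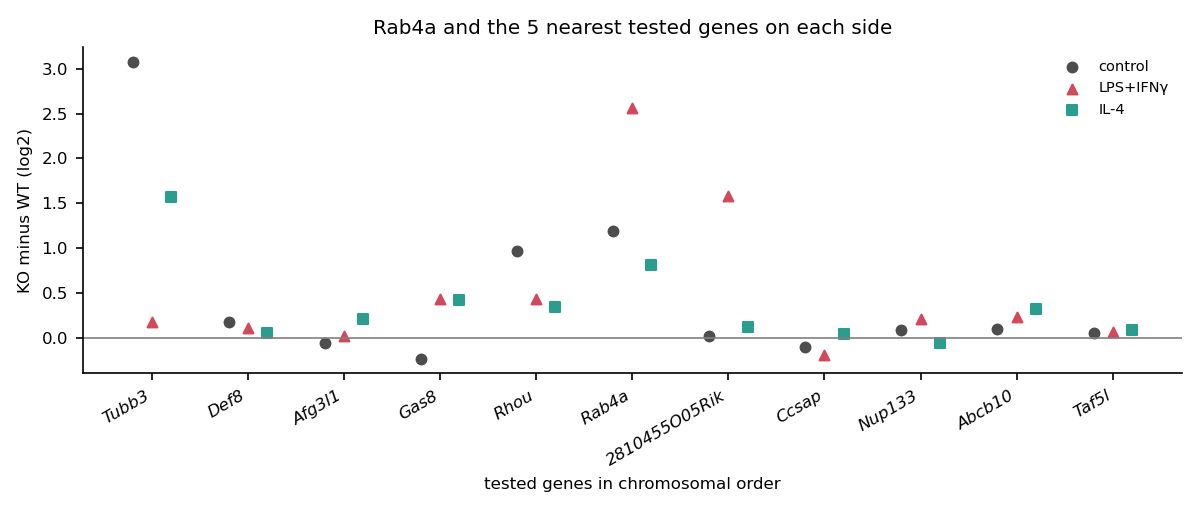
KO minus WT log2 difference (vertical axis) of Rab4a and of the 5 nearest tested genes on each side, in chromosomal order (horizontal axis), with 1 point per treatment. Rab4a has 1.19, 2.56 and 0.81 in control, LPS+IFNγ and IL-4; the largest point of a neighbour, 3.08 for Tubb3 in control, did not pass the test.

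The 4 genes whose log2 CPM followed Rab4a most closely over the 12 libraries were Xlr (Pearson r = 0.935), Igf2bp3 (0.931), Rtcb (0.923) and Snrpd2 (0.894). These are descriptions of libraries that share genotype, sex and treatment, and 3 of 13524 genes had r above 0.9. Rab4a was chosen on its KO and WT difference, so a like difference in genes that follow it comes in part from that choice. Xlr, an X-linked member of a multigene family, differed by 2.57 ± 0.26 between KO and WT as the mean of the treatments, at a level of 0.0677 to 2.68 CPM. Igf2bp3, an RNA-binding protein gene on chromosome 6, differed by 1.53 ± 0.27 between KO and WT. Rtcb, the tRNA ligase gene on chromosome 10, differed by 0.19 ± 0.06 and Snrpd2, a spliceosome core gene on chromosome 7, by 0.42 ± 0.09.

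Per kilobase of exon, Rab7 (late endosome) and Rab5c (early endosome) were the most abundant of the 10 genes in control and IL-4 libraries, and Rab4a and Rab27a the least abundant in every group. In WT control libraries the mean levels were 176 CPM per kb for Rab7 and 136 for Rab5c, followed by Rab10 (47.6), Rab11a (29.2), Rab32 (29.1), Rab4b (15.5), Rab5a (13.8), Rab20 (12.9), Rab27a (2.10) and Rab4a (1.16). Within this order the libraries of Rab11a and Rab32 overlapped, and all other neighbours were separate. Rab5c stood between 8.0 and 14.6 times above Rab5a in every library. After LPS+IFNγ the order in WT libraries was led by Rab5c (216 ± 17.8 CPM per kb), Rab10 (145 ± 12.9), Rab7 (131 ± 3.38) and Rab20 (113 ± 2.85; SD, n = 2). In KO libraries Rab5c led with 272 ± 49.9 CPM per kb, Rab10 and Rab7 overlapped, and Rab32 and Rab20 overlapped. After IL-4, Rab7 led with 196 ± 12.2 CPM per kb in WT and 188 ± 24.2 in KO, and Rab27a was last in both genotypes with 0.895 ± 0.157 and 0.734 ± 0.416.

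**Figure D3:**
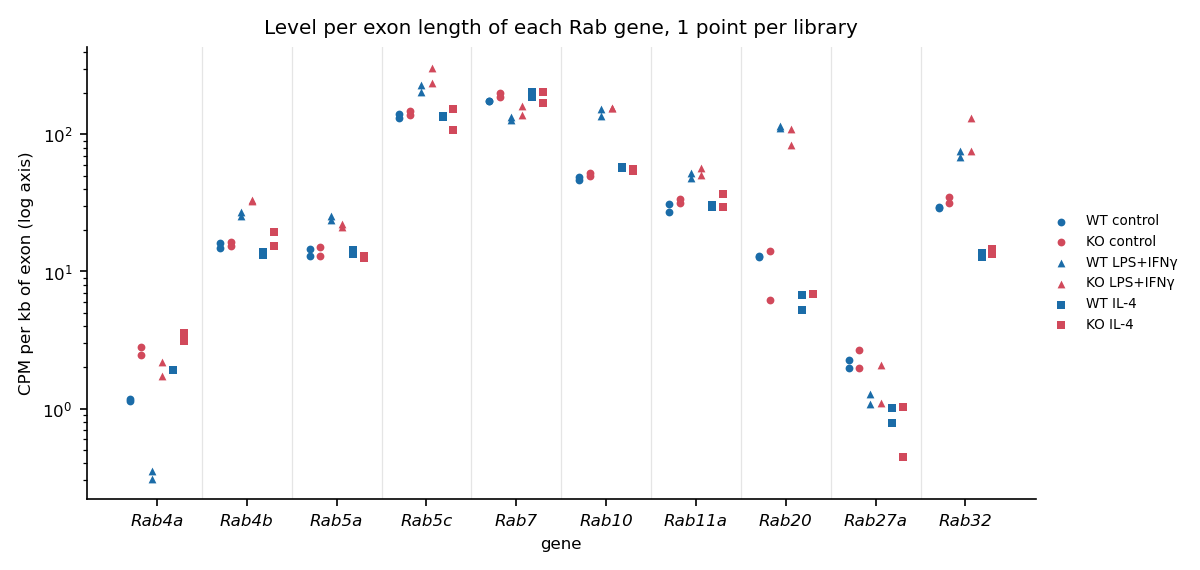
CPM per kilobase of exon (vertical axis, log scale) of the 10 Rab genes (horizontal axis) in each of the 12 libraries; circles are control, triangles LPS+IFNγ and squares IL-4, with WT blue and KO red. Rab20 moves from 12.9 CPM per kb in WT control to 113 after LPS+IFNγ, while Rab4a and Rab27a stay at the bottom of the range.

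LPS+IFNγ was compared with control within each genotype to describe how classical activation changed these genes. In both genotypes 7 of the 9 genes other than Rab4a rose and 1, Rab7, fell (edgeR quasi-likelihood test, Benjamini-Hochberg adjusted p below 0.05 over all genes). Over all genes tested, 27.4% were called higher and 27% lower in WT, and 27.2% higher and 26.1% lower in KO. The median log2 difference of the 9 genes was 0.77 in WT and 0.93 in KO, beside −0.05 and −0.01 over all genes. These differences are relative to a scaling (TMM) that centres on the bulk of genes, and with total counts alone the median of all genes moved by −0.50 in both genotypes. With total counts, 4 genes were called higher and 2 lower in WT, where Rab4b, Rab5c and Rab11a lost their call and Rab27a was called lower, and 5 were called higher and 1 lower in KO, where Rab5a and Rab11a lost theirs. The shares of all genes with total counts were 15.1% higher and 45.6% lower in WT, and 14.7% higher and 44.7% lower in KO. No called gene of the 9 changed direction.

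**Figure D4:**
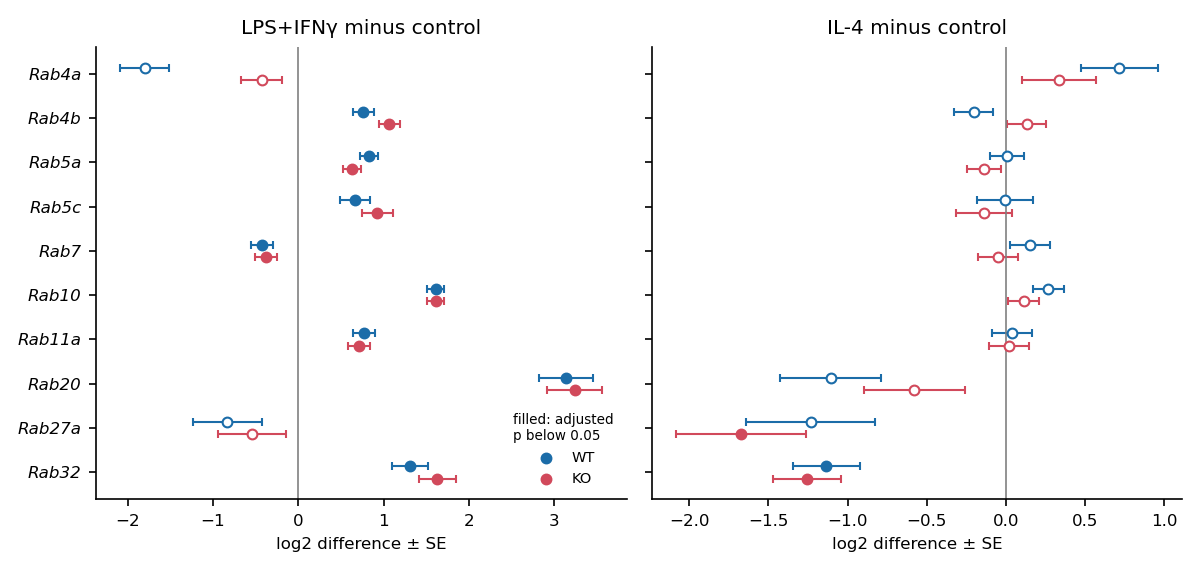
log2 difference from control with its SE (horizontal axes) of the 10 genes (vertical axis) after LPS+IFNγ (left) and IL-4 (right), WT blue and KO red. Filled points have an adjusted p below 0.05 and open points do not, except that Rab4a is drawn open because it was not tested; Rab20 has the highest values after LPS+IFNγ, 3.13 in WT and 3.24 in KO.

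Of the early endosome genes, Rab5a, which drives homotypic fusion of early endosomes, was at 68.3 and 76.9 CPM in WT control and at 124 and 134 CPM in WT LPS+IFNγ libraries. In KO libraries it was at 68.1 and 79.5 CPM in control and at 117 and 111 CPM after LPS+IFNγ. The groups did not overlap, and the difference was 0.83 ± 0.11 in WT (adjusted p = 0.000169) and 0.63 ± 0.11 in KO (adjusted p = 0.000962, edgeR). Its relative Rab5c rose from 311 and 287 CPM to 501 and 446 CPM in WT, and from 323 and 306 CPM to 520 and 675 CPM in KO. The Rab5c difference was 0.66 ± 0.18 in WT (adjusted p = 0.0107) and 0.93 ± 0.18 in KO (adjusted p = 0.00181). The WT call did not hold when WT LPS+IFNγ library 1 was left out (adjusted p = 0.0732) or when WT control library 2 was left out (adjusted p = 0.0742). Rab4b rose from 29.2 and 31.95 CPM to 53.6 and 50.1 CPM in WT and from 30.2 and 32.1 CPM to 64.1 and 66.0 CPM in KO. These are increases of 1.69 and 2.09 times in the means, opposite in sign to the values of Rab4a, with log2 differences of 0.76 ± 0.12 (adjusted p = 0.000600) and 1.06 ± 0.12 (adjusted p = 7.68e-05). The annotated transcripts of Rab4b share 62.7% of their 31-base stretches with other genes, most of them with Gm21983, which was at 0 to 0.111 CPM.

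Of the recycling and exocytic genes, Rab11a, the GTPase of the recycling endosome, was at 81.9 and 92.9 CPM in WT control and at 143 and 156 CPM in WT LPS+IFNγ libraries. The KO libraries were at 102 and 94.8 CPM in control and at 152 and 169 CPM after LPS+IFNγ. It rose by a log2 difference of 0.77 ± 0.13 in WT (adjusted p = 0.000685) and 0.71 ± 0.13 in KO (adjusted p = 0.00119). Rab10, which carries cargo such as Toll-like receptor 4 to the plasma membrane, was at 163 and 171 CPM in WT control and at 478 and 542 CPM after LPS+IFNγ. In KO it went from 176 and 183 CPM to 549 and 544 CPM. The means rose 3.05 times in both genotypes, and both log2 differences were 1.61 ± 0.10 (adjusted p = 1.89e-06 in WT and 2.15e-06 in KO, edgeR). The call was kept under all 18 alternatives in each genotype. Rab10 overlaps the antisense transcript Rab10os, which was at 16.6 to 31.1 CPM. Without strand information in the counting, reads from the stretches they share cannot be told apart. Rab10os shares 107 of the 3483 stretches of 31 bases of Rab10.

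Rab20 (chromosome 8, 11453518 to 11478710, minus strand) and Rab7 (chromosome 6, 87999106 to 88045270, minus strand) were the called genes with the largest mean rise and the single fall. Rab20, a GTPase of maturing phagosomes, was at 18.0 and 17.9 CPM in WT control and at 155 and 160 CPM in WT LPS+IFNγ libraries. In KO libraries it was at 19.7 and 8.62 CPM in control and at 152 and 116 CPM after LPS+IFNγ, so that KO control library 2 lay below the other control libraries. The means rose 8.79 times in WT and 9.48 times in KO, and the log2 differences were 3.13 ± 0.32 (adjusted p = 3.15e-05) and 3.24 ± 0.32 (adjusted p = 2.88e-05, edgeR). The call was kept under all 18 alternatives, with a KO difference between 2.75 and 3.96. Rab20 shares 24.0% of its 31-base stretches with E230013L22Rik, which was at 0 to 0.886 CPM in control and IL-4 libraries and at 2.52 to 7.72 CPM after LPS+IFNγ.

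Rab7, which directs late endosomes and phagosomes to lysosomes, was at 458 and 460 CPM in WT control and at 347 and 335 CPM in WT LPS+IFNγ libraries. In KO libraries it was at 489 and 526 CPM in control and at 360 and 422 CPM after LPS+IFNγ. The groups did not overlap, and the mean was 1.35 times lower in WT and 1.30 times lower in KO. The log2 difference was −0.43 ± 0.13 in WT (adjusted p = 0.0175) and −0.38 ± 0.13 in KO (adjusted p = 0.0318, edgeR). The WT call was lost without any 1 of the 4 WT control and LPS+IFNγ libraries (adjusted p between 0.0639 and 0.0948). The KO call did not survive leaving out KO LPS+IFNγ library 1 (0.139), KO control library 2 (0.127) or any 1 of those 4 WT libraries (0.0508 to 0.0549), and when the KO control and LPS+IFNγ libraries were fitted alone (0.138). Rab7 shares 18.4% of its 31-base stretches with other genes, most with the pseudogene Rab7-ps1, which was at 0.0675 to 0.777 CPM.

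The upstream sequences of this pair are shown because Rab20 had the largest called rise and Rab7 the single called fall. They are from RefSeq (GRCm38.p6) and are written 5′ to 3′ on the gene's minus strand, ending next to the gene. For Rab20 the 180 bases outside the annotated gene are given (chr8:11478711-11478890, minus strand) and for Rab7 the 250 bases before the outer of 2 starts (chr6:88045271-88045520, minus strand). Capitals mark matches to a searched motif.
Rab20: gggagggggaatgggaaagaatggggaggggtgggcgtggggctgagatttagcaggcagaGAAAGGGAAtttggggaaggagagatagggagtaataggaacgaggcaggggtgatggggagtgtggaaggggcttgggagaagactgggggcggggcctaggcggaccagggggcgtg
Rab7: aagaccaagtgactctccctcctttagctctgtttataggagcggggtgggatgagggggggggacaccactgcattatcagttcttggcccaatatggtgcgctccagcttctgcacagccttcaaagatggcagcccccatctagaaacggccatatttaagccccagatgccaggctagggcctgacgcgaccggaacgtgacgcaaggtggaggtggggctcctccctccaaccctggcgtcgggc
Both strands of the 250 bases before each start were searched for GAAANNGAA (part of the ISRE, bound by interferon regulatory factors), GGGANTTTC (part of the NF-κB site) and CACGTG (E-box of the CLEAR element, bound by TFEB). These letters were found in 7.13%, 0.941% and 6.02% of all 32851 promoter windows of this length. Rab20 had 1 GAAANNGAA match 189 bases before its start, in capitals above, and 1 CACGTG match 46 bases before the start, inside the annotated gene. Neither start of Rab7 had a match. A window was found for 9 of the 10 genes, with 11 starts in all. Rab5a had 2 CACGTG matches (235 and 95 bases before the start), and the downstream of 2 starts of Rab27a had 1 CACGTG match (246 bases). Rab4b, Rab5c, Rab10, Rab11a and Rab32 had no match to these 3. A match describes these letters and is not a measured binding site.

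Rab32 (chromosome 10, 10545002 to 10558265, minus strand) and Rab27a (chromosome 9, 73044854 to 73097629, plus strand) act on lysosome-related and secretory organelles. Rab32, which also marks phagosomes that hold bacteria, was at 68.6 and 67.5 CPM in WT control and at 177 and 161 CPM in WT LPS+IFNγ libraries. In KO libraries it was at 81.8 and 74.5 CPM in control and at 177 and 307 CPM after LPS+IFNγ. The higher of these values was in KO LPS+IFNγ library 2, the library with the lowest total count and the highest granulocyte marker sum, whose part in that value was not tested. Rab32 rose by 1.31 ± 0.21 in WT (adjusted p = 0.000584) and 1.63 ± 0.21 in KO (adjusted p = 0.000163, edgeR), and kept both calls under all 18 alternatives. Rab27a, a GTPase of secretory lysosomes and exosomes, was at 8.70 and 7.63 CPM in WT control and at 4.97 and 4.20 CPM in WT LPS+IFNγ libraries. The KO libraries were at 10.4 and 7.65 CPM in control and at 8.03 and 4.26 CPM after LPS+IFNγ, and these groups overlapped. Its differences of −0.83 ± 0.40 in WT (adjusted p = 0.1096) and −0.54 ± 0.40 in KO (adjusted p = 0.284) did not pass the test. In WT it passed with total counts (adjusted p = 0.0196) or with the WT control and LPS+IFNγ libraries fitted alone (0.00631).

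IL-4 was compared with control to describe alternative activation. Of the 9 genes other than Rab4a, 0 rose in either genotype, 1 fell in WT (Rab32) and 2 fell in KO (Rab32 and Rab27a). Over all genes, 4.92% were called higher and 4.12% lower in WT, and 3.52% higher and 3.34% lower in KO. The median difference of the 9 genes was −0.0050 in WT and −0.14 in KO, beside −0.016 and 0.0036 over all genes. At an unadjusted p below 0.05, 4 of the 9 differed in WT and 2 in KO, beside 25.6% and 24.5% of all genes.

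Rab32 was at 30.003 and 32.04 CPM in WT IL-4 and at 31.4 and 34.0 CPM in KO IL-4 libraries, below both controls of each genotype. The control means were 2.19 times higher in WT and 2.39 times higher in KO, with log2 differences of −1.13 ± 0.21 (adjusted p = 0.0134) and −1.26 ± 0.21 (adjusted p = 0.0101, edgeR). Rab32 thus fell with IL-4 and rose with LPS+IFNγ in both genotypes. The WT call was lost without any 1 of the 4 WT control and IL-4 libraries (adjusted p between 0.0766 and 0.106). The KO call was lost without KO control library 1 (0.0543) and with the KO control and IL-4 libraries fitted alone (0.0602). Rab27a was at 3.90 and 3.04 CPM in WT IL-4 and at 3.99 and 1.70 CPM in KO IL-4 libraries, again below both controls. Its difference was −1.23 ± 0.41 in WT (adjusted p = 0.0904, and 0.0417 by DESeq2) and −1.67 ± 0.41 in KO (adjusted p = 0.0434). The KO call was lost under 9 of 18 alternatives, among them those without KO control library 1 (0.187), KO IL-4 library 2 (0.187) or any 1 WT library (0.0652 to 0.0793). Rab20 was at 9.42 and 7.26 CPM in WT IL-4 libraries, below the controls, but its difference of −1.11 ± 0.32 did not pass (adjusted p = 0.0615), while DESeq2 called it lower (0.00683), as did the fits with no filter, with the compared libraries alone and without KO control library 1 or 2. In KO it was at 9.50 and 9.51 CPM, with a difference of −0.58 ± 0.32 (adjusted p = 0.302), and without KO control library 2 it was called lower. Rab10 was at 199.6 and 203 CPM in WT IL-4 libraries, above both controls, with a difference of 0.27 ± 0.10 (adjusted p = 0.124), and it was called higher by DESeq2 (adjusted p = 0.0360) and with the WT control and IL-4 libraries fitted alone (0.0185). Rab4b, Rab5a, Rab5c, Rab7 and Rab11a had differences between −0.20 and 0.15 in both genotypes, and none passed.

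KO and WT were then compared for the 9 genes that had not been chosen on this contrast, to ask whether other endosomal Rab genes differed with genotype. In edgeR's test 0 of 9 were called in any treatment or in the mean of the treatments, where for control, LPS+IFNγ, IL-4 and the mean 0.0739%, 0.0591%, 0.0665% and 0.17% of all genes were called. At an unadjusted p below 0.05, 0, 2, 1 and 1 of the 9 differed, beside 7.48%, 8.27%, 3.35% and 11.3% of all genes, and DESeq2 also called 0 of 9 in each. KO and WT libraries did not overlap for 4, 7 and 4 of the 9 genes in the 3 treatments, beside 44.2%, 39.1% and 30.8% of all genes. Rab4b had the largest of the mean differences by its SE, 0.24 ± 0.07 (unadjusted p = 0.00818, adjusted p = 0.386), with both KO libraries above both WT libraries after LPS+IFNγ and after IL-4. Rab32 differed by 0.52 ± 0.21 after LPS+IFNγ (adjusted p = 0.590) and by 0.26 ± 0.12 in the mean of the treatments (adjusted p = 0.442). Without KO LPS+IFNγ library 1, so that library 2 stood alone for its group, these differences were 0.86 and 0.38. The responses to LPS+IFNγ and to IL-4 were compared between genotypes by an interaction term, and 0 of 9 were called for either, beside 0% of all genes (5 and 4 genes with DESeq2). At an unadjusted p below 0.05, 0 of 9 passed in either interaction, beside 3.52% and 4.47% of all genes, and DESeq2 called 0 of 9 in either. The interaction was 0.30 ± 0.17 for Rab4b and 0.32 ± 0.29 for Rab32 with LPS+IFNγ, and 0.53 ± 0.45 for Rab20 with IL-4.

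The proteins that load, read and recycle these GTPases were followed in 5 lists. Their counts stand beside the shares of all genes given above for the same test (27.4% higher and 27% lower in WT, and 27.2% and 26.1% in KO) and for total counts (15.1% and 45.6% in WT, and 14.7% and 44.7% in KO). With IL-4 the shares of all genes were 4.92% higher and 4.12% lower in WT, and 3.52% and 3.34% in KO. None of the tested genes of these lists was called between KO and WT in the mean of the treatments, where 0.17% of all genes were. Of 22 early endosome effectors and exchange factors, 9 rose and 3 fell with LPS+IFNγ in WT, and 9 rose and 1 fell in KO, with medians of 0.20 and 0.14. Rabgef1, an exchange factor for Rab5, rose by 1.41 ± 0.16 in WT and 1.36 ± 0.16 in KO, and Rin2, another Rab5 exchange factor, by 1.46 ± 0.21 and 1.23 ± 0.21. Ankfy1, a Rab5 effector, rose by 1.19 ± 0.11 and 1.05 ± 0.11, and Hgs, a subunit of the sorting complex for ubiquitinated cargo, by 0.95 ± 0.10 and 1.06 ± 0.10. Appl1, a Rab5 effector of signalling endosomes, fell by 0.92 ± 0.10 in WT and by 0.85 ± 0.10 in KO. With total counts the split was 4 higher and 9 lower in WT, and 4 and 10 in KO. With IL-4, 4 rose and 1 fell in WT and 1 rose and 1 fell in KO.

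Of 21 recycling endosome genes, 19 were tested, and with LPS+IFNγ 5 rose and 6 fell in WT and 5 rose and 3 fell in KO, with medians of −0.21 and −0.08. Ehd1, an ATPase that shapes recycling tubules, had the largest rise of the list, 2.88 ± 0.20 in WT and 2.60 ± 0.20 in KO. Rab11fip1, a Rab11 effector, rose by 1.81 ± 0.30 and 2.21 ± 0.30, and Micall1, which recruits Ehd1, by 0.78 ± 0.14 and 0.73 ± 0.14. Exoc2, an exocyst subunit, rose by 0.49 ± 0.10 and 0.57 ± 0.10, and was not called in either genotype with total counts, at −0.01 in WT. Tfrc, the transferrin receptor and classical cargo of Rab4 and Rab11 recycling, fell by 1.88 ± 0.25 and 2.43 ± 0.26. Its levels were 142 and 157 CPM in WT control and 39.2 and 41.7 CPM in WT LPS+IFNγ libraries. Rab11fip3, another Rab11 effector, fell by 0.63 ± 0.18 and 0.73 ± 0.18, and Vps35, a retromer subunit, by 0.47 ± 0.10 and 0.60 ± 0.10. With total counts 2 genes were called higher and 10 lower in WT, and 2 and 11 in KO, and Micall1 lost its call in both. The Rab11fip3 call was lost in WT without WT control library 1 (adjusted p = 0.0907) or WT LPS+IFNγ library 1 (0.0947), and in KO without KO control library 2 (0.0595). With IL-4, 2 rose and 2 fell in WT and 4 rose and 1 fell in KO.

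Of 21 regulators and effectors of Rab7, 6 rose and 9 fell with LPS+IFNγ in WT and 6 rose and 7 fell in KO, with medians of −0.20 and −0.24. The exchange factor for Rab7 is the Mon1-Ccz1 complex, and its genes Mon1b (1.13 ± 0.16 in WT and 1.04 ± 0.16 in KO), Ccz1 (1.02 ± 0.10 and 0.995 ± 0.105) and Rmc1, a further subunit (1.19 ± 0.17 and 1.096 ± 0.174), all rose. Fyco1, a Rab7 effector for outward transport, rose by 0.84 ± 0.14 and 0.81 ± 0.14. Those that fell included Tbc1d2 (−1.87 ± 0.24 and −1.46 ± 0.25) and Tbc1d5 (−0.99 ± 0.17 and −1.10 ± 0.17), which encode GTPase-activating proteins of Rab7. Osbpl1a, a cholesterol-sensing Rab7 effector, fell by 1.51 ± 0.21 and 1.14 ± 0.21, and Vps18, a subunit of the HOPS tether, by 0.60 ± 0.10 and 0.34 ± 0.10. The KO call of Vps18 was lost without KO control library 1 (adjusted p = 0.112) or KO LPS+IFNγ library 2 (0.0551). It was also lost when the compared libraries were fitted alone (0.0885). With total counts 3 genes were called higher and 14 lower in each genotype, and Fyco1 lost its call in both. With IL-4, 2 rose and 2 fell in WT and 1 rose and 2 fell in KO.

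Of 28 effectors and regulators of Rab27, Rab32 and Rab10, 21 were tested, and 8 rose and 7 fell in each genotype with LPS+IFNγ, with medians of 0.10 in WT and −0.21 in KO. Unc13d, the Rab27 effector that primes secretory lysosomes, rose by 1.67 ± 0.13 in WT and 1.77 ± 0.13 in KO. Lrrk2, a kinase that phosphorylates Rab10, rose by 1.49 ± 0.35 and 2.07 ± 0.35, and its relative Lrrk1 by 1.14 ± 0.20 and 1.09 ± 0.20. Lrrk2 was at 33.6 CPM in KO LPS+IFNγ library 1 and at 73.3 CPM in library 2. Micall2, a Rab effector of the MICAL-like family, rose by 1.64 ± 0.17 and 1.31 ± 0.17. Tbc1d4, a GTPase-activating protein of Rab10, fell by 2.84 ± 0.52 and 2.56 ± 0.52, and Mical1, an actin oxidase that binds Rab proteins, by 2.16 ± 0.18 and 1.80 ± 0.18. Sgsm2, a GTPase-activating protein of Rab32, fell by 2.10 ± 0.24 and 2.15 ± 0.24. Mlph, a Rab27 effector read at 0.0675 to 0.921 CPM, was called lower in both genotypes, and the WT call was lost without WT control library 1 (adjusted p = 0.0601), WT control library 2 (0.0835) or WT LPS+IFNγ library 1 (0.137), with DESeq2 (0.0806) and with no filter (0.0833). With total counts the split was 4 higher and 10 lower in WT and 5 and 10 in KO. With IL-4, 1 rose and 2 fell in each genotype.

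Of 9 genes of Rab prenylation and GDP dissociation, 0 rose and 3 fell with LPS+IFNγ in WT and 2 rose and 4 fell in KO, with medians of −0.07 and −0.25. Chml (−1.49 ± 0.21 in WT and −1.64 ± 0.21 in KO) and Chm (−0.69 ± 0.14 and −0.57 ± 0.14), the escort proteins that present Rab proteins to the prenylating enzyme, fell in both genotypes. Gdi2, a GDP dissociation inhibitor, was called lower by 0.28 ± 0.10 and 0.36 ± 0.10, close to the threshold in WT (adjusted p = 0.0478). The WT call of Gdi2 was lost without any 1 of 9 libraries (adjusted p between 0.0514 and 0.183) and with no filter (0.161), the KO call when KO LPS+IFNγ library 2 was left out (0.0581), with no filter (0.0543) or with the compared libraries alone (0.160), and the KO call of Chm without KO control library 1 (0.0618). With total counts 0 genes were called higher and 6 lower in each genotype. With IL-4, 0 of 9 were called in either genotype.

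The response was set beside that of the other Rab GTPase genes, of which 35 of 49 passed the filter. Of these, 14 rose and 4 fell with LPS+IFNγ in WT and 13 rose and 3 fell in KO, with medians of 0.34 and 0.27. Of all genes, 27.4% were called higher and 27% lower in WT, and 27.2% and 26.1% in KO. With total counts 6 of the 35 were called higher and 12 lower in WT, and 2 and 15 in KO. The shares of all genes were then 15.1% and 45.6% in WT, and 14.7% and 44.7% in KO. Rab43 rose by 1.66 ± 0.22 in WT and 1.81 ± 0.22 in KO, Rab21, an early endosome GTPase, by 1.22 ± 0.12 and 1.07 ± 0.12, and Rab12 by 1.03 ± 0.14 and 0.83 ± 0.14, although its KO call was lost with total counts (adjusted p = 0.0645). Rab6b fell (−3.08 ± 0.25 and −3.57 ± 0.26), and Rab34 by 2.36 ± 0.38 and 2.11 ± 0.37. Rab3d, a GTPase of secretory granules, fell by 0.31 ± 0.11 and 0.30 ± 0.11, and its call was lost without any 1 of the 4 WT control and LPS+IFNγ libraries in WT (adjusted p between 0.0823 and 0.168) and without any 1 of 7 libraries in KO (0.0613 to 0.244), and in both genotypes with DESeq2 (0.0633 and 0.0644) and with no filter (0.108 and 0.112). Rab33a was called higher in both, at 0 to 0.244 CPM in control and 0.290 to 2.97 CPM in LPS+IFNγ libraries, and its KO call was lost without any 1 of 7 libraries (adjusted p between 0.0563 and 0.638, the highest without KO LPS+IFNγ library 1) or with total counts (0.0661), and its WT call without WT control library 2 (0.0647). With IL-4, 0 of the 35 rose and 1 fell in WT and 1 rose and 1 fell in KO. The shares of all genes were 4.92% higher and 4.12% lower in WT, and 3.52% and 3.34% in KO. In KO against WT as the mean of the treatments 0 of 35 were called, beside 0.17% of all genes.

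**Figure D5:**
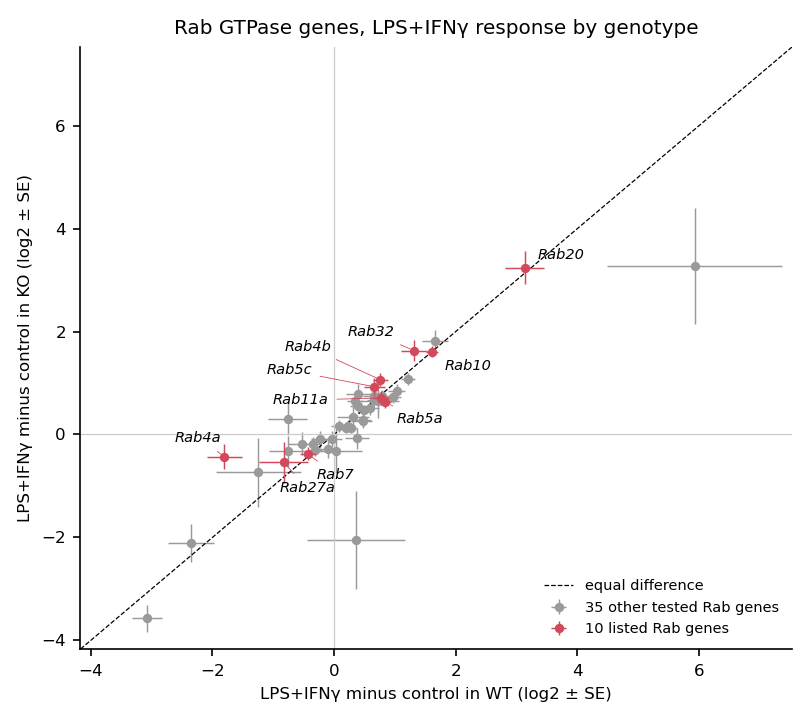
log2 difference after LPS+IFNγ with its SE in WT (horizontal axis) and KO (vertical axis) for the 10 genes (red, named) and the 35 other tested Rab GTPase genes (grey); the dashed line marks equal differences. Rab20 lies at 3.13 and 3.24, close to the line, and Rab4a at −1.80 and −0.43, above it.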

How the data were processed

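RNA was sequenced from 12 macrophage libraries in 6 groups of 2. The deposited table holds estimated counts per Ensembl gene; the tools named, per the submitters' processing notes, are FastQC 0.11.9, DESeq2 1.45.3, Salmon 1.10.2 and R 4.4.1, with build GRCm39. Their roles, the annotation and strand use in counting were not given in the sources used here, although the kit was directional per the labels' protocols. All deposited values were whole numbers and were used as they stood. Symbols, exon lengths and positions are GENCODE M21 (GRCm38), which matched 92.0% of identifiers; no coordinates were converted. All sample columns were mapped.

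Genes were filtered with filterByExpr, scaled with TMM (factors from 0.756 to 1.16) and fitted in R 4.3.3 with edgeR 4.0.16 (quasi-likelihood, 1 coefficient per group, all 12 libraries, 6 residual degrees of freedom, two-sided, Benjamini-Hochberg over 13525 genes, threshold 0.05). SEs came from the F statistics. CPM used the scaled library sizes. The fit was tested on simulated data. The members and lists were chosen with earlier results of these data known. Within each list, up to 4 genes per direction called in both genotypes with LPS+IFNγ, in order of size, are named. A list gene known as Nherf1 was not matched. A gene and a motif are not reported here. Libraries of each group differed by more than sampling noise. In control, LPS+IFNγ and IL-4, chi-square per gene was 7.10, 7.81 and 15.6 in WT and 48.4, 53.8 and 54.9 in KO. The fit shares 1 estimate of the spread over the 6 groups. The SEs and p-values of the KO comparisons therefore do not show the wider spread of KO libraries. Alternatives were DESeq2 size factors, DESeq2 1.42.0, no filter, a replicate block, the compared libraries alone, each library left out and, chosen after seeing the data, total-count scaling.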

Additional observations from a re-analysis of the deposited data

How the results depend on the processing

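Over the 18 alternatives, the 19 called values of the 9 tested Rab genes kept direction and call in 309 of 342 cases and lost the call in 33, with 0 changes of direction. The number of genes called with IL-4 in WT (1) was 3 without a filter, 4 with DESeq2 and 4 with the compared libraries alone. With IL-4 in KO (2) it was 0 with the compared libraries alone. In WT the added calls were Rab20 and Rab27a, lower, in all 3 of these fits, and Rab10, higher, in the last 2. The 4 counts of all genes between KO and WT were 66, 35, 18 and 95 with DESeq2 and 107, 81, 33 and 312 without a filter, and the first 3 were 4, 6 and 5 with the compared libraries alone. With IL-4, 1222 genes in WT and 928 in KO became 1841 and 1640 with DESeq2, and 3475 and 8 with the compared libraries alone; without a filter KO had 1620. With a replicate block, 3 were called with IL-4 in WT (Rab20 and Rab27a beside Rab32), and Rab27a was added with LPS+IFNγ in WT. No other call of the 9 genes changed. Over all genes the block moved the calls with IL-4 in WT from 1222 to 1603. Those with LPS+IFNγ in WT went from 7348 to 7626. The block ended the calls of Gdi2 in WT (adjusted p = 0.0604) and Rab33a in KO (0.0550). Over all genes it moved the calls between KO and WT from 10 to 27 in control, from 8 to 21 after LPS+IFNγ, from 9 to 36 after IL-4 and from 23 to 173 in the mean. Library numbers do not establish pairing, and the main fit does not use them. Deviations of same-numbered libraries nonetheless correlated above 0.1 in 14 of 15 pairs of groups, and all were positive (0.046 to 0.337). The stromal marker sum was also higher in library 2 of each group. What the numbers stand for was not tested. Leaving out 1 library left a lone library in its group, which is assumed to vary like the other groups. The number of genes called then moved over all genes as well as among the 9. A change in the number called is therefore not read as one of the Rab genes alone. The mean over treatments was not run with the compared libraries alone, since it uses all. Exoc2 changed sign in WT with total counts (−0.0122). For these results the cause was not tested. With 2 libraries a group, and 8 or 9 counts of Rab4a in WT LPS+IFNγ libraries, counting error limits how precisely its ratio is known.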
